A study of Schizosaccharomyces pombe with 3 samples.

Results

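The genes described here are 4 protein-coding genes of the fission yeast Schizosaccharomyces pombe that make sterols or regulate their synthesis, namely sre1, erg27, erg32 and erg6. They were taken by name, and their values are those of the tiling probes inside each gene and within 500 bp on either side. They are 4 of the 886 protein-coding genes of chromosome II that hold at least 3 placed probes. Their level of acetylation of lysine 9 of histone H3 (H3K9ac) was read by chromatin immunoprecipitation on Agilent arrays of 60-base probes spaced 50 bp apart.

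There were 3 strains with 1 array each: a wild type, a deletion of alp13, and a strain with the asf1-1 allele of asf1. All cells came from asynchronous cultures growing exponentially at 30 °C in rich medium (YEA), and all were fixed at 18 °C with 3% paraformaldehyde. On each array Cy5 carried the DNA recovered with the H3K9ac antibody and Cy3 the whole-cell extract DNA of the same strain. Alp13 is a chromodomain subunit of a histone deacetylase complex built on Clr6, and Asf1 is a histone chaperone. The labels do not give the background genotype of the strains or say what the asf1-1 allele alters.

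Fission yeast makes ergosterol by a chain of enzymes, several of which need molecular oxygen. Sre1 is a membrane-bound transcription factor that is cleaved when sterol or oxygen supply falls, after which its released part enters the nucleus and activates sterol genes, its own gene among them, through sterol regulatory elements in their promoters. Erg27 is a 3-keto sterol reductase of the C-4 demethylation step, Erg32 is a C-5 sterol desaturase, and Erg6 is the sterol 24-C-methyltransferase. H3K9ac is a mark that lies mostly at the promoters and early parts of active genes, and histone deacetylases remove it.

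The upstream DNA is shown for sre1 and erg27, which have a short gap between them and the protein-coding gene before. These gaps are shorter than the 500 bp flank, so part of the upstream probes lie in the preceding genes. The antisense noncoding RNA SPNCRNA.5302 spans part of the sre1 gap and the start of sre1. Before erg32 no protein-coding gene lies within 500 bp of the annotated start, and its upstream DNA is not shown. That whole 500 bp flank lies inside the annotated antisense noncoding RNA SPNCRNA.5134. The capitals in the first sequence mark the letters TCACCCCA, the longest form of the searched sterol regulatory element found at any of the 4 genes. Both runs are on the + strand of ASM294v3, reach from the end of the preceding gene to the base before the annotated start, and are written 5′ to 3′. The sre1 run is chrII:1691224-1691393 (170 bp) and the erg27 run is chrII:1110599-1110866 (268 bp).
sre1 upstream: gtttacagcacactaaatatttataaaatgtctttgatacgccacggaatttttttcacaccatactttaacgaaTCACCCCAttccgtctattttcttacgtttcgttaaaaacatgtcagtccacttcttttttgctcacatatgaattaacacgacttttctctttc
erg27 upstream: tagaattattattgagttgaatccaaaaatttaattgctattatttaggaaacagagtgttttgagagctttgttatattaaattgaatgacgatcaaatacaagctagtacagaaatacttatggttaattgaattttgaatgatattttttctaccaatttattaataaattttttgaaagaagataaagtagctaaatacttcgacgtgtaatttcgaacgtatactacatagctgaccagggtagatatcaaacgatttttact

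Searched on both strands from 250 bp before to 50 bp after each gene start, TCACCCCA occurred in 14 of 5112 promoters (0.274%). Of the 4 genes, sre1 alone held it, 95 bp before its start. The shorter forms nest inside it: TCACCCC was in 0.626% of promoters, TCACCC in 4.79% and TCACC in 30.3%, and none of these was in the windows of erg27, erg32 or erg6. A longer form that adds 1 base at each end was in 0 of the 5112 promoters. Only exact letters were searched, so a sterol regulatory element that departs from them would be missed. A match is a run of letters in this window and was not tied to binding of any factor.

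A level below is the mean of log2(Cy5/Cy3) over the probes inside a gene, with each array centred on the median of its own probes. The SD beside it is across probes of 1 array and is no replicate error. The DNA was sheared to fragments of 500 to 1000 bp, so probes 50 bp apart read largely the same fragments. Neighbouring probes and 100-bp bins are thus not separate readings, and counts of probes or bins describe the profile only. With 1 array per strain no difference has a replicate check, and none was tested. A difference was called higher or lower where it reached 1.5-fold (0.585 on the log2 scale). The median Cy3 intensity of the arrays ran from 1619 to 1811 and the median Cy5 intensity from 1808 to 2101, and nearly all probes were well above background in both channels. Before centring, the array medians stood at 0.00 (wild type), 0.41 (alp13 deletion) and 0.17 (asf1-1), so a change given below is relative to a shift of that size. The probes between genes had a centred median of 0.32 in wild type, -0.09 in asf1-1 and -0.86 without alp13. Near-duplicate probes (239 pairs) gave an SD of 1 probe's change of 0.133 for the alp13 deletion and 0.0768 for asf1-1. No array of total H3 was analysed here, so the amount of H3 and its acetylation cannot be told apart. The assignment of arrays to strains rests on the labels, since the arrays hold no probes on alp13 or asf1.

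In wild type, erg27 was the only one of the 4 genes above the array median. Its level was 0.45 ± 0.28 (SD, 31 probes), which ranked 250 from the highest of 886 genes. The level of erg32 was -0.23 ± 0.12 (25 probes, rank 624), that of sre1 was -0.55 ± 0.26 (66 probes, rank 756), and that of erg6 was -0.63 ± 0.23 (38 probes, rank 779). The neighbours sre1 and erg6 in this order differed by less than the spread across their probes. The median gene stood at 0.08.

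The order of the 4 levels was the same in asf1-1 as in wild type, and without alp13 sre1 stood above erg32. In the alp13 deletion sre1 stood at 0.35 ± 0.50 and rank 291, between erg27 at 0.68 ± 0.30 (rank 91) and erg32 at 0.11 ± 0.18 (rank 454). In asf1-1 it stood at -0.42 ± 0.24 and rank 715, below erg27 at 0.94 ± 0.32 (rank 58) and erg32 at 0.16 ± 0.10 (rank 419). The gene erg6 was the lowest of the 4 on every array, at -0.65 in both mutants, with ranks of 757 in the alp13 deletion and 780 in asf1-1; with each array centred on its intergenic probes its alp13 deletion level turned positive.

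**Figure D1:**
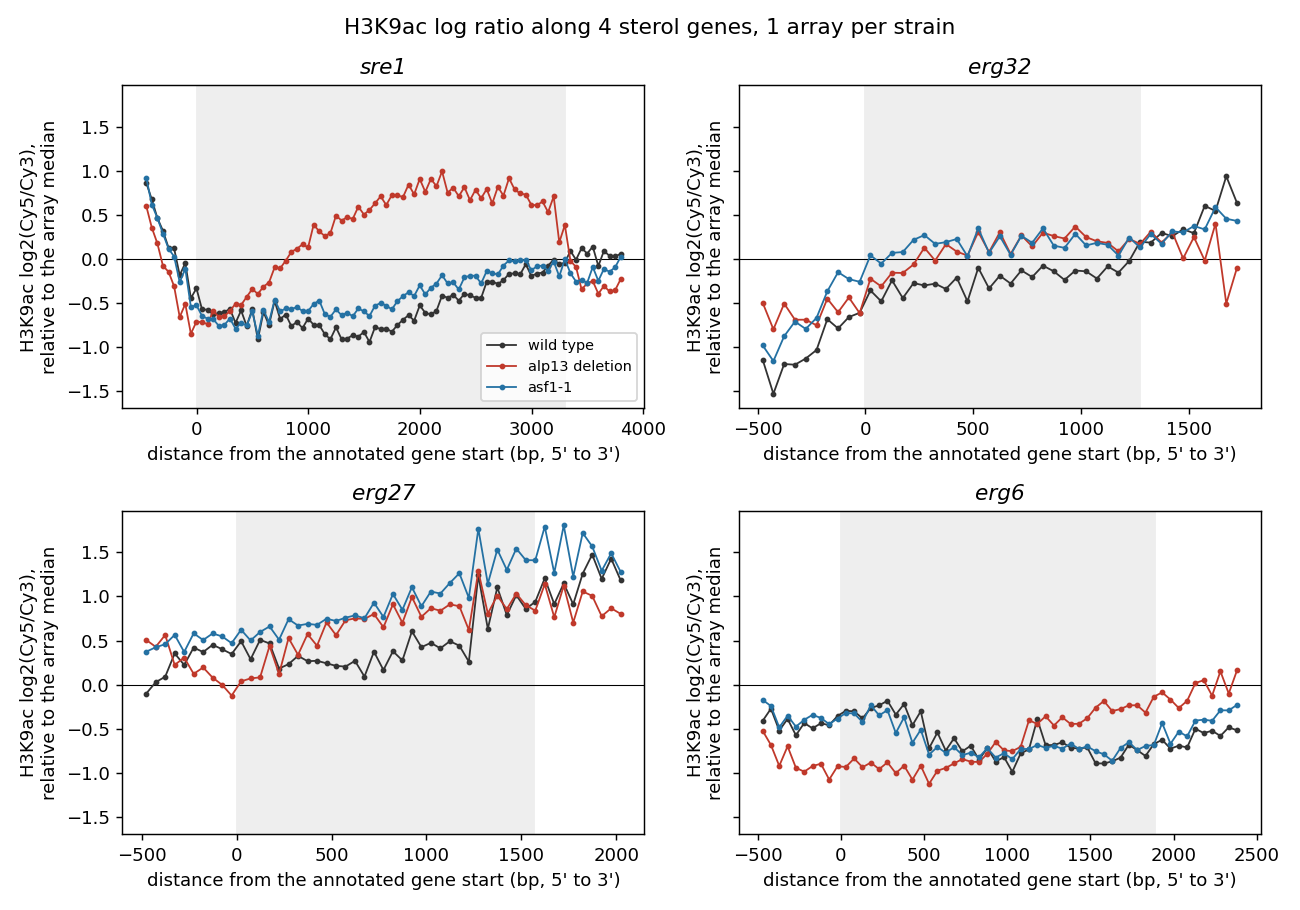
Centred log2(Cy5/Cy3) of every probe in and within 500 bp of the 4 genes, against distance from the annotated start in bp, with 1 line per array and the gene shaded. The alp13 deletion line of sre1 leaves the other 2 inside the gene and reaches its highest 100-bp mean of 0.91 at 2100 to 2200 bp, while the lines of erg6 cross in mid-gene.

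The gene of the transcription factor, sre1 (SPBC19C2.09, chrII:1691394-1694691, + strand, 1 exon), carried more H3K9ac over most of its length in the alp13 deletion than in wild type. Its body mean was -0.55 in wild type, -0.42 in asf1-1 and 0.35 without alp13. The alp13 deletion array was thus above both other arrays, which lay within 0.13 of each other. The difference from wild type was 0.91 ± 0.49 (SD across 66 probes, 1.88-fold), rank 49 of 886. It passed 1.5-fold at 49 of the 66 probes, and 92.4% of them lay above 0.

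Both channels differed between the arrays at sre1. The median Cy5 intensity over its probes was 2152 in wild type, 2300 in asf1-1 and 4283 without alp13. The median Cy3 intensity was 3394, 2854 and 2299 in the same order, so the whole-cell extract signal was highest where the log ratio was lowest. On centred Cy5 alone the alp13 deletion difference was 0.63, still past 1.5-fold. On the same measure the asf1-1 difference was -0.01, against 0.13 for the log ratio.

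The wild-type profile of sre1 fell from 0.77 at 500 to 400 bp before the start, inside the preceding gene prp38, to -0.39 in the last 100 bp before it. It went on to its lowest point of -0.88 at 1300 to 1400 bp and rose again to -0.05 at the end of the gene. Without alp13 the upstream fall went deeper, to -0.78 in the last 100 bp before the start, and the gene then climbed to 0.91 at 2100 to 2200 bp. The asf1-1 profile had its low of -0.76 earlier, at 300 to 400 bp, and stood at -0.63 at the position of the wild-type low.

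The sre1 difference in the alp13 deletion had opposite signs outside and deep inside the gene. It was -0.47 at 200 to 100 bp before the start, near 0 from 100 to 300 bp, past 1.5-fold in all of the 25 bins of 100 bp from 700 to 3200 bp, and highest at 1.51 between 1700 and 1800 bp. Past the end it was -0.40 at 3400 to 3500 bp. The coding sequence begins 434 bp after the annotated start, so the probes near 0 lie in the span before it. In the 100 bp before the start, which hold TCACCCCA, the difference was -0.39. That stretch is shorter than the sheared fragments, so it was not read apart from its surroundings.

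**Figure D2:**
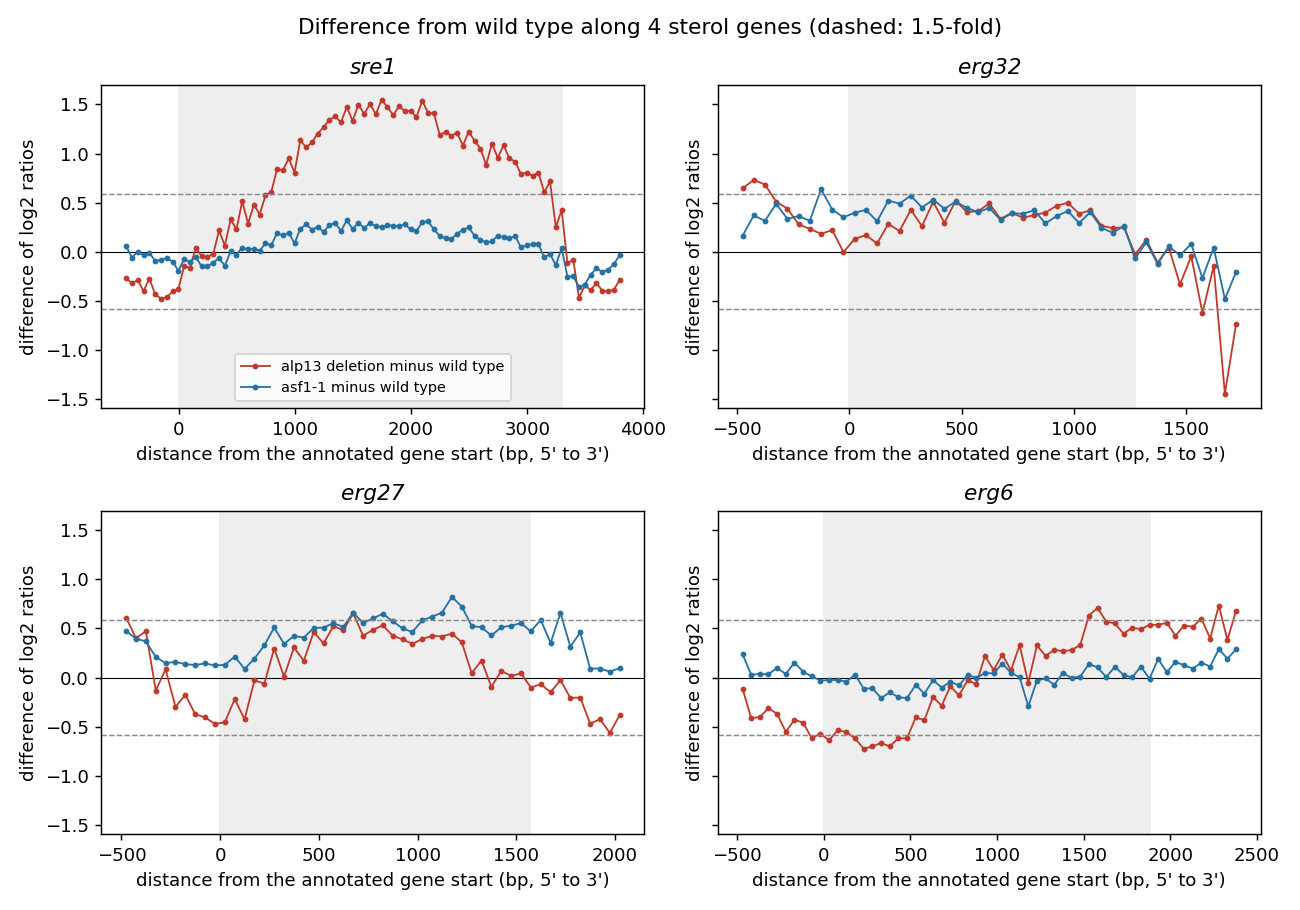
Difference of centred log2 ratios from wild type at every probe along the 4 genes, against distance from the annotated start in bp, with the alp13 deletion in red, asf1-1 in blue and 1.5-fold dashed. At sre1 the 100-bp means of the red line lie past 1.5-fold from 700 to 3200 bp, and at erg27 the blue line lies above 0 in all 26 bins of 100 bp.

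The reductase gene erg27 (SPBC1709.07, chrII:1110867-1112435, + strand, 2 introns) was higher in asf1-1 than in wild type at every probe, yet its mean stayed below the threshold. The body mean was 0.45 in wild type, 0.94 in asf1-1 and 0.68 without alp13, so both mutants stood above wild type. The asf1-1 difference was 0.49 ± 0.17 (SD across 31 probes, 1.40-fold), rank 26 of 886, with 7 probes past 1.5-fold. The alp13 deletion difference was 0.22 ± 0.28, rank 291.

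On all 3 arrays H3K9ac around erg27 was highest beyond its end, at 1800 to 1900 bp, where the RNase P and MRP subunit gene pop8 begins. The gap to pop8 is 261 bp, so the probes from 1900 bp on lie inside pop8 and the downstream flank lies partly in it. The level there was 1.37 in wild type, 1.64 in asf1-1 and 1.03 without alp13. In wild type the level went from 0.49 at 100 to 200 bp to 0.18 at 600 to 700 bp and was higher again in the last part. In asf1-1 the median of the last part of the gene was 1.28, rank 15 of 886 genes for that position, and that of the 500 bp downstream was 1.45, rank 8. Inside the gene the asf1-1 difference went up with position, but not steadily (Spearman's rho of 0.61 across 31 probes that share 1 pair of arrays). It was 0.17 in the first 100 bp, 0.74 at 1100 to 1200 bp and 0.52 at 1400 to 1500 bp. Past the end it was 0.08 at 1900 to 2000 bp. In all, 5 bins between 600 and 1300 bp passed 1.5-fold. The alp13 deletion difference was 0.50 at 500 to 400 bp before the start, inside dus2, and -0.44 in the last 100 bp before it. Inside the gene this difference was still -0.23 at 100 to 200 bp and turned positive from the next bin, with 0.57 at 600 to 700 bp. Past the end it was -0.49 at 1900 to 2000 bp.

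The desaturase gene erg32 (SPBC27B12.03C, chrII:1324193-1325464, minus strand, 1 exon) was above wild type at all 25 probes in both mutants, without reaching 1.5-fold in either. Its body mean was -0.23 in wild type, 0.16 in asf1-1 and 0.11 without alp13. The difference was 0.34 ± 0.12 in the alp13 deletion (rank 236) and 0.40 ± 0.09 in asf1-1 (rank 60). In asf1-1 the difference declined along the gene (rho of -0.643). The alp13 deletion difference was 0.15 in the first 100 bp, 0.48 at 900 to 1000 bp and 0.25 at 1100 to 1200 bp, lower towards both ends of the gene than between them.

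Upstream of erg32 the wild-type level was among the lowest of the measured genes, and both mutants stood above it. The annotation marks the 5′ end of erg32 as partial, so the start used here may not be that of the transcript. The median over the 500 bp upstream was -1.08 in wild type, -0.69 in asf1-1 and -0.61 without alp13. The wild-type value was the 14th lowest of 884 genes, where the median gene stood at 0.56. In this upstream stretch the differences from wild type were 0.47 in the alp13 deletion (rank 9 of 884) and 0.39 in asf1-1 (rank 8), whereas the median gene was at -0.95 and -0.29. Downstream, erg32 and the Mis18-complex gene mis19 share 182 bp at their 3′ ends. The alp13 deletion difference was positive over that overlap (0.25 at 1100 to 1200 bp) and reached -0.79 at 1600 to 1700 bp, near the start of mis19.

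The methyltransferase gene erg6 (SPBC16E9.05, chrII:1923510-1925394, + strand, 1 exon) had nearly the same mean on all 3 arrays, at -0.63, -0.65 and -0.65. Its alp13 deletion difference of -0.03 ± 0.46 averages negative values early in the gene and positive values late in it. It was -0.71 at 200 to 300 bp and 0.67 at 1500 to 1600 bp, with 8 probes past 1.5-fold lower and 2 past it higher. The difference followed position along the gene with a rho of 0.946 across 38 probes.

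The asf1-1 profile of erg6 stayed closer to wild type. Its difference from wild type ran only from -0.20 at 400 to 500 bp to 0.24 in the last bin downstream. The same held array-wide: over all kept probes the correlation with wild type was 0.894 for asf1-1 and 0.476 for the alp13 deletion. Set directly against the alp13 deletion, asf1-1 was higher by 0.60 at 200 to 300 bp and lower by 0.55 at 1500 to 1600 bp. The whole of erg6 lies inside the annotated 3′ UTR span of uvi31 on the other strand, and its first 153 bp overlap the 3′ end of pac3. The arrays carry no strand information, so none of its probes belongs to erg6 alone.

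Of the 4 genes, 1 was called higher in the alp13 deletion and 0 lower, against 15.3% and 21.7% of all genes. In asf1-1 0 were called either way, against 3.84% of all genes (1.69% higher and 2.14% lower). Between the mutants, sre1 was called lower in asf1-1 than in the alp13 deletion (-0.78), where 8.8% of all genes were called lower and 16.1% higher. The other 3 differences between the mutants were 0.05 for erg32, 0.27 for erg27 and 0.00 for erg6. The mutant differences share the wild-type array, so their values are set side by side and not correlated.

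Gene length went along with the alp13 deletion difference across the 886 genes (rho of 0.693) and less with that of asf1-1 (0.402), as descriptions over genes of the same arrays. Among 177 genes within 25% of the length of sre1, the median alp13 deletion difference was 0.42, 63 were called higher and 20 lay above sre1. Among 250 genes of about the length of erg32 the median was -0.36, and 22 lay above it. In asf1-1, 10 of those 250 genes lay above erg32, and 5 of the 300 genes of about the length of erg27 lay above erg27. The erg6 value of -0.03 was close to the median of its 335 genes of like length, 0.03.

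**Figure D3:**
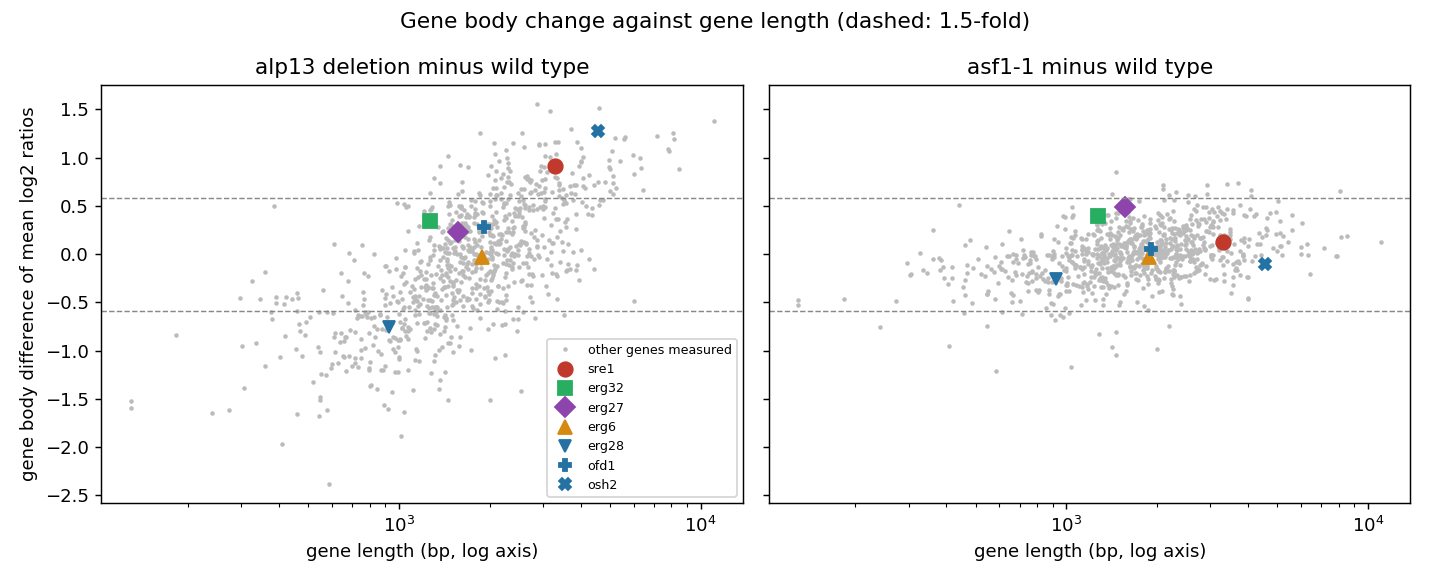
Difference of gene body means from wild type against gene length in bp (log axis) for the 886 genes in grey, with the 4 sterol genes and the 3 other genes of the pathway list marked and 1.5-fold dashed. In the alp13 deletion sre1 at 0.91 and osh2 at 1.28 lie above the upper dashed line, and in asf1-1 all 7 lie between the lines.

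Each gene was also split into a first, middle and last part of equal length, with 500 bp flanks, and the median of each was taken. Without alp13 the median gene changed by -0.95 upstream, -0.44 in the first part, 0.18 in the middle, 0.07 in the last part and -0.38 downstream. For sre1 the middle part changed by 1.45, rank 33 of 884, and the last part by 0.93. For erg27 the middle changed most, by 0.48. For erg6 the first part changed by -0.63 and the last by 0.43.

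The upstream flank difference of each of the 4 genes lay above that of the median gene in both mutants. Many genes lie above a median by definition, so ranks are given. Without alp13 the differences were -0.35 for sre1 (rank 145 of 884), 0.47 for erg32 (rank 9), -0.14 for erg27 (rank 77) and -0.49 for erg6 (rank 201). In asf1-1 they were -0.05 (rank 167), 0.39 (rank 8), 0.14 (rank 55) and 0.06 (rank 97) in the same order, while the median gene was at -0.29. The wild-type upstream level of all 4 was below that of the median gene, at 0.12 for sre1, 0.35 for erg27 and -0.44 for erg6 beside the -1.08 of erg32. Both mutant differences subtract these same wild-type values. The erg6 flank lies wholly inside pac3 and uvi31, and those of sre1 and erg27 lie partly in prp38 and dus2. The erg32 flank lies wholly inside the antisense noncoding RNA SPNCRNA.5134.

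Differences within an array do not depend on its centring. The body of sre1 changed by 1.25 more than its flanks in the alp13 deletion (rank 98 of 886), the only one of the 4 past 1.5-fold, where 43.5% of all genes passed and the median was 0.48. The values of erg27, erg32 and erg6 were 0.37, 0.31 and -0.08. In asf1-1 none passed, against 5.64% of all genes, with values from -0.15 for erg6 to 0.26 for sre1. The last part changed by more than the first by 1.06 at erg6 and by 0.60 at sre1, past 1.5-fold like 40.8% of all genes, and by 0.13 at erg32 and 0.08 at erg27. The sre1 value was below the threshold on Cy5 alone (0.21), with normexp background correction (0.49) and with an offset larger by 100 bp (0.36).

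**Figure D4:**
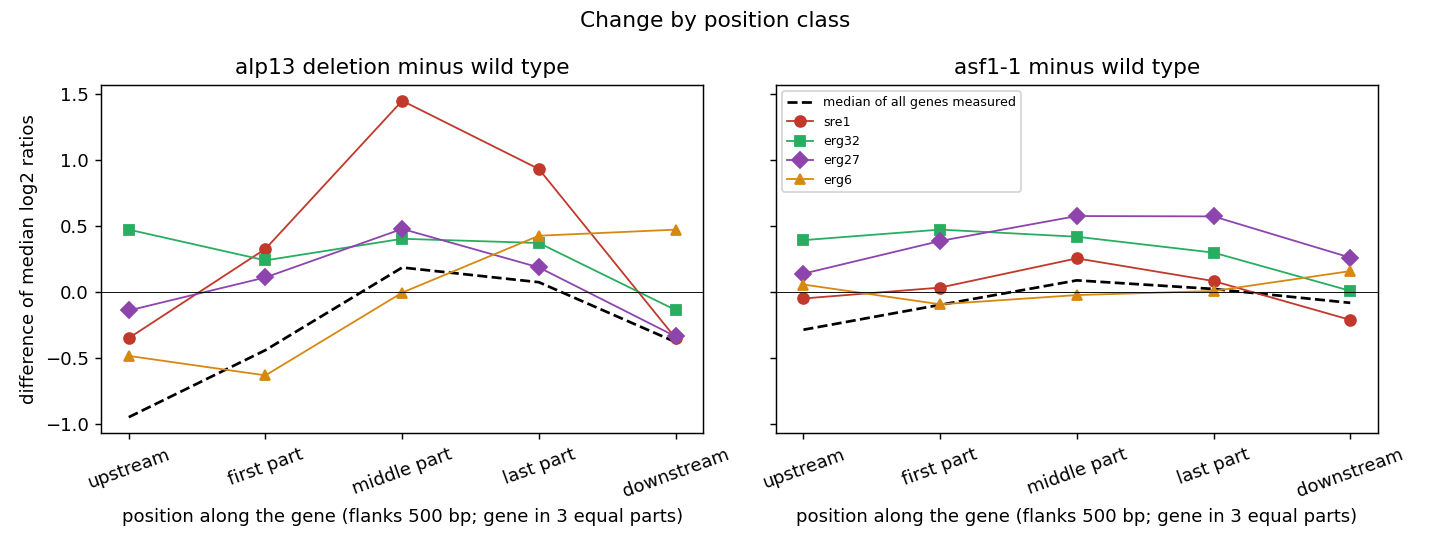
Difference of median log2 ratios from wild type in 5 position classes for the 4 genes, with the median of all measured genes dashed. In the alp13 deletion sre1 peaks at 1.45 in its middle part and erg6 runs from -0.63 in the first part to 0.47 downstream, and in asf1-1 erg27 stays highest in its middle and last parts, at 0.57 in both.

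Genes next to the 4 did not share their values throughout. Beyond the end of sre1, SPBC19C2.10 stood at -0.04 in wild type, 0.67 in asf1-1 and 0.64 without alp13, past 1.5-fold in both mutants, while sre1 was past it in the alp13 deletion alone. The splicing factor gene prp38, before sre1, stood at 0.96 in wild type, 0.56 without alp13 and 0.94 in asf1-1. Before erg27, the tRNA dihydrouridine synthase gene dus2 stood at 0.15, 0.58 and 0.51 in the same order, and beyond its end pop8 stood at 1.27, 0.82 and 1.37. In that order mis19, which overlaps erg32, stood at 0.31, 0.11 and 0.29. Of the genes that overlap erg6, pac3 stood at -0.01, -0.52 and -0.05, and uvi31 at -0.37, -0.53 and -0.38. An annotated antisense noncoding RNA, SPNCRNA.1412, covers 93.1% of erg27. Another, SPNCRNA.5134, covers 54.2% of erg32 and all of its upstream flank.

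The genes most like each of the 4 in profile were taken by the lowest root mean square difference over 20 position bins on 3 arrays (60 values), among genes within 25% of its length. For sre1 these were mef1, a mitochondrial elongation factor gene (0.346), and mtr10, a nuclear import receptor gene (0.405), where the median of 176 candidates was 0.756. For erg32 they were sib3 (0.393) and rrn11 (0.418). For erg27 they were tif452, which encodes a cap-binding translation factor (0.383), and mug97 (0.384). For erg6 they were alg12, a mannosyltransferase gene (0.301), and SPBC651.07 (0.346). These matches were picked on levels of the same 3 arrays, so a like difference from wild type is partly built in. In the alp13 deletion mef1 and mtr10 differed from wild type by 0.80 and 1.15, past 1.5-fold like sre1. The matches of erg32 differed by 0.08 and -0.15, those of erg27 by -0.32 and 0.45, and those of erg6 by 0.39 and 0.50. In asf1-1 the values were 0.32 and 0.21 (sre1), 0.04 and 0.39 (erg32), -0.003 and 0.31 (erg27), and 0.07 and 0.06 (erg6). A low distance thus did not always go with a like difference. Among the 4 themselves the closest profiles were those of sre1 and erg6 (0.633) and the farthest those of erg27 and erg6 (1.349), with no matching on length.

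A wider list of 47 annotated genes, mostly of sterol synthesis, Sre1 processing and sterol transport, had 7 members with enough placed probes, the 4 genes and 3 more. The alp13 deletion had 2 of the 7 called higher, 1 lower and 4 neither, with a median of 0.28 against -0.06 over all genes, of which 15.3% were called higher and 21.7% lower. The higher count was 5 without any centring and 6 when intergenic probes set the centre, and the 1 lower call was lost under both, on Cy5 alone and with an offset larger by 100 bp. In asf1-1 0 were called, with a median of 0.05 against 0.00. The 40 other genes of the list were not analysed here.

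The 3 added genes differed from each other. The oxysterol-binding protein gene osh2 stood at -0.69 in wild type, 0.59 without alp13 and -0.80 in asf1-1 (91 probes), a difference of 1.28 in the alp13 deletion that ranked 6 of 886. The gene of the scaffold protein Erg28 stood at 0.54, -0.22 and 0.28 in that order (19 probes), with an alp13 deletion difference of -0.76 that turned to 0.43 when arrays were centred on intergenic probes. The gene of Ofd1, a dioxygenase family protein that regulates the degradation of the released Sre1 fragment, stood at -0.03, 0.25 and 0.02 (37 probes).

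Cross-hybridisation between sterol genes was checked on the reference sequence. No run of 20 bases of any of the 4 genes occurs elsewhere in the genome. The coding sequence of erg32 is 64.4% identical to that of its paralog erg31 over 887 aligned bases, with no identical run longer than 15 bases.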

How the data were processed

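Agilent Feature Extraction 10.7.3.1 made the scanner files, as their headers state. Per the file headers, the processed intensity deposited for each channel had its background subtracted, was detrended, and was scaled by 1 linear dye factor. The log ratio deposited beside it, in log10, served as an alternative. The authors' deposited value table was treated as a score of unknown scale, centring and direction, with column medians of 0.114 (wild type), 0.0849 (alp13 deletion) and -0.0204 (asf1-1). Its columns did not follow their own arrays (r of 0.225, 0.528 and -0.58). The alp13 deletion column correlated more with the asf1-1 array (0.687) and the wild-type array (0.645) than with its own, and the table was not used.

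From the intensities, log2(Cy5/Cy3) was computed and centred on each array's median, without loess or quantile steps. Control spots and spots marked as outliers were left out, which kept 43912 of 43993 probes. The genome build behind the array's coordinates was not given in the sources used here. Probes were placed on ASM294v3 by subtracting 900 bp left of the break on chromosome II and 1800 bp right of it, the offsets at which Cy3 intensity followed GC content best (r of 0.539 and 0.528, next best 0.341 and 0.344). Around each of the 4 genes the same search gave 899 or 900 bp and 1800 bp. Coordinates printed are those of the annotation.

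The 4 genes, the pathway list and the summaries were chosen with earlier results of these data known. Genes named besides them were those of the pathway list with 3 or more probes, protein-coding genes within 500 bp, and the 2 most similar profiles of each. Genes were called at 1.5-fold. The method was tested on simulated data. Sequences and gene models came from RefSeq, ASM294v3. Python 3.11.15, numpy 2.4.6, pandas 2.3.3, scipy 1.17.1, R 4.3.3 and limma 3.58.1 were used, limma for normexp with an offset of 50, run on median spot signals because the files carried no mean signals. Precision is limited by the number of arrays, 1 per strain. Other alternatives changed the centring, scaling, dim-probe filter, overlap filter, gene summary, placement and flank width.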

Additional observations from a re-analysis of the deposited data

How the results depend on the processing

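No paired analysis was possible because each strain has 1 array. In the alp13 deletion 3 of the 4 genes were called with no centring and 4 with intergenic centring, against 1, where 42.7% and 79.1% of all genes were called, against 37%; the pathway list then had 5 and 6 genes higher, against 2. Its count of lower genes went from 1 to 0 with either centring, on Cy5 alone and with probes placed 100 bp further off. In asf1-1 the genes called went from 0 to 1 with no centring (erg27) and to 2 (erg27 and erg32) with intergenic centring or normexp, where 6.66%, 25.4% and 10.2% of all genes were called, against 3.84%, and the list had the same 1, 2 and 2 higher. Between the mutants intergenic centring called 3 of the 4 genes, against 1, and 59% of all genes, against 24.9%, and 5 of the list lower, against 2; 1 of the list, erg28, was higher, against 0, without overlapping probes or with an offset smaller by 100 bp. With intergenic centring the alp13 deletion level of erg6 was 0.21 and the erg28 difference 0.43. The body of 2 genes outpaced its flanks past 1.5-fold in the alp13 deletion, against 1, with gene medians or flanks of 1000 bp. With normexp the last part lay above the first in 2 genes in the alp13 deletion, against 4, and in 1 in asf1-1, against 3. The cause of these moves was not tested. The sre1 difference stayed past 1.5-fold in 11 alternatives in the alp13 deletion (0.63 to 2.09) and between the mutants (-1.55 to -0.64). The erg6 tilt held in 10 (0.87 to 1.15), while its body differences changed sign between alternatives; without overlapping probes erg6 has no value.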

Other observations

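The whole-cell extract signal differed between the 4 genes and between arrays. Median Cy3 intensity was 2873 at erg6, 1864 at erg27 and 1641 at erg32 in wild type, beside the 3394 of sre1. In the alp13 deletion it was 2646 at erg6, 1534 at erg27 and 1358 at erg32. The median Cy5 intensity of erg27 was 2465 in wild type, 3222 in asf1-1 and 3303 without alp13, and that of erg32 was 1279, 1819 and 1922 in the same order. The GC content of the gene bodies was 40.2% for sre1, 39% for erg6, 37.6% for erg27 and 36.7% for erg32, the same order as their wild-type Cy3 intensity. Its part in the log ratios was not tested.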
